A study of Rattus norvegicus with 42 samples.

Results

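The genes followed here build, load or exchange the lipoproteins of the liver, namely Apob and Mttp, the A group (Apoa1, Apoa2, Apoa4 and Apoa5), the C group (Apoc1, Apoc2 and Apoc3) and Apoe. They were found by gene name in the table of elongating RNA polymerase, where 10 of 26258 named genes carry these names and hold 25 of the 60999 transcript regions. All 10 have a row among the 22929 genes with RNA counts. Of the 3981 regions at which the glucocorticoid receptor (GR) was measured, 15 were centred within 50 kb of the transcription start site (TSS) of one of these genes.

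Lipoproteins carry cholesterol and triglyceride through blood in a shell of phospholipid and protein. Apob is the structural protein of very low density lipoprotein, and Mttp, the microsomal triglyceride transfer protein, loads lipid onto it as it enters the endoplasmic reticulum. Apoa1 and Apoa2 are the main proteins of high density lipoprotein, Apoa4 and Apoa5 bind triglyceride-rich particles, the C proteins steer lipoprotein lipase and remnant clearance, and Apoe is a ligand of the receptors that take remnants up. Glucocorticoids are known to act on hepatic lipid export, which GR may do by binding DNA near its targets.

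All rats were male Sprague Dawley, adrenalectomised so that their own hormone was lost, and were infused with corticosterone (CORT) either pulsatile (PULS, 1 pulse an hour) or constant (CONS), or with vehicle (VEH). Livers were taken at 140 min, the peak of a pulse (PEAK_140), and at 180 min, its nadir (NADIR_180), with constant infusion sampled at the same times (CONS_140, CONS_180). GR and pSer2 Pol2, the form of RNA polymerase II phosphorylated on serine 2 of its tail during elongation, were measured by ChIP-Seq in 10 libraries each, 2 per group, each library a pool of 6 rats. The 2 VEH libraries came from pulsatile vehicle, 1 at 140 min and 1 at 180 min, so that no constant vehicle was available for the CONS ChIP groups. RNA was sequenced at 180 min in 12 libraries, 3 each of pulsatile and constant CORT (PULS_CORT, CONS_CORT) and of pulsatile and constant vehicle (PULS_VEH, CONS_VEH). The animals' age is not given in the sources used here.

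The RNA libraries held 3956379 to 7777219 counted reads, of which the 10 genes took 1.63% to 2.00%, the GR libraries 2051977 to 6715803 tags and the pSer2 Pol2 libraries 4938473 to 9326927 tags. Hepatocyte markers were abundant in every RNA library, with a summed level of 136600 to 187700 counts per 1e6 counted reads (CPM) over 6 genes, against 223 to 408 CPM for 5 Kupffer cell markers. Apob, Apoa4 and Mttp are also genes of the gut, and 3 of the 4 gut markers with a row were close to absent, with Vil1 at 17 reads, Fabp2 at 43 and Lct at 3 in all 12 libraries together. Cdh17 held the remainder, 6408 reads. In whole liver, fewer cells of a type and less RNA per cell cannot be told apart. Known GR targets responded, as Per1 mRNA rose by 2.74 (SE 0.27) on the log2 scale under pulses and by 3.13 (SE 0.27) under constant infusion, and Fkbp5, Tat and Zbtb16 rose by 2.09, 1.41 and 2.74 and by 2.95, 1.82 and 3.44.

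Of the genes, 7 lie in 2 clusters. Apoa1, Apoc3, Apoa4 and Apoa5 lie within 36.6 kb of chromosome 8 (rn6, 50525091 to 50561736), and Apoc2, Apoc1 and Apoe lie between 80589023 and 80617057 of chromosome 1. Apoa2 lies on chromosome 13, Apob on chromosome 6 and Mttp on chromosome 2. The GR regions are therefore shared between neighbours, with 6 regions around the chromosome 8 genes, 4 around the chromosome 1 genes, 3 around Apoa2 and 1 each upstream of Apob and Mttp. They are named below by the number the deposited table gives them.

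Motif matches were at hand for 5 of the 15 regions, and 2 of these 5 held no match to the motifs searched by the study. The matches of the other 3 regions are shown because each bears on a region with a response described below, and the letters in capitals mark the core of each motif. In GR2758, near Apoa2 (rn6, chr13:89575763-89576400), overlapping matches to the GR response element began 2 b before the centre of the region and joined to 15 b, with the inverted half-sites ACANNNTGT in capitals. In GR1119, upstream of Apoa5 (chr8:50552303-50552698), overlapping STAT5 matches began 155 b past the centre, with the palindrome TTCNNNGAA in capitals. In GR1577, upstream of Apob (chr6:33150570-33151195), there were 4 matches to CEBPA and 1 to HNF4A, a main regulator of hepatocyte genes. They are written as the study's motif search gave them.
GR2758 GRE: agcACAGTCTGTtca
GR1119 STAT5: cacTTCCCAGAAgcc
GR1577 HNF4A: cagCAAAGTCCA
GR1577 CEBPA: tgaTTGCgacac

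RefSeq promoters (GRCr8, 250 b before to 50 b after a start) were at hand for 5 of the 10 genes, in 9 entries. Read on both strands, the GR half-site AGAACA was found in 1 of these 5 genes (Apoc1) and in 20.7% of 33469 promoters of all genes. ACANNNTGT was found in Apoa5 alone of the 5 and in 6.86% of all promoters, TTCNNNGAA likewise in Apoa5 alone and in 8.87%, and CAAAGTCCA in none of the 5 and in 0.391%. The upstream 250 b of the most upstream Apoe start (GRCr8, chr1:88485817-88486066, minus strand) is shown since a GR region covered the start of Apoe in rn6. It holds no exact match to any of the 4 motifs, so that no letter is in capitals. Sites that differ from a motif by a letter or more were not searched, and the 2 builds were not aligned to each other.
Apoe promoter: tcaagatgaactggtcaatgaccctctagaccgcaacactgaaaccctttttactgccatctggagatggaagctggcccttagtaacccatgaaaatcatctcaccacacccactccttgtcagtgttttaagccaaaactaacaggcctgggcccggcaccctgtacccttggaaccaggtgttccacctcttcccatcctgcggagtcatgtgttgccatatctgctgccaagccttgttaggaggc

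GR values are log2 tag values deposited per region and library, on which the lowest values are below 0. By the study's methods, the regions are merged peaks called over input in these same libraries. The lists hold 3210 peaks for PEAK_140 and 118 for VEH, so a rise over VEH is partly set by how the regions were chosen. Calls against VEH share this limit, for the 15 regions as for all 3981. The NADIR_180 list holds 73 peaks and the CONS_180 list 2428. Calls of NADIR_180 against PEAK_140 or CONS_180, and of changes over time between patterns, share it too. Both VEH libraries were below 0 at 4 of the 15 regions and 1 of them at 8 more, so a change against VEH rests there on values at the low end of the scale and is not a bound. A region was called where limma's Benjamini-Hochberg adjusted p over all 3981 regions was under 0.05 and the change over 1.5-fold. Against VEH, the median change over all regions was 4.17 for the pulse peak, 0.84 for the nadir, 3.38 for CONS_140 and 3.46 for CONS_180, and the medians of the 15 regions were 3.50, 0.48, 2.70 and 2.71.

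The strongest GR region of all 15 was GR2950 (chr8:50548215-50548927), in the interval between Apoa4 and Apoa5, at 11562 b from the Apoa4 TSS and -10555 b from the Apoa5 TSS (a minus sign marks upstream). Its GR values were -0.15 and 1.30 in VEH, 7.68 and 7.76 in PEAK_140, 4.55 and 4.03 in NADIR_180, 6.99 and 6.97 in CONS_140, and 7.04 and 6.80 in CONS_180. Every CORT library was above both VEH libraries, the nadir libraries included, and the nadir libraries were below all others that received CORT. The GR value rose by 7.14 (SE 0.48, adjusted p = 1.26e-05, limma) at PEAK_140 and by 3.71 (SE 0.48, adjusted p = 0.00264) at NADIR_180, where it was the only called region of the 15. The NADIR_180 call was lost where only the 4 libraries of the 2 groups were fitted (adjusted p = 0.151). With each library centred on its median over all regions, GR2950 was still called higher at PEAK_140 (log2 change 2.52, adjusted p = 0.0382) and not at NADIR_180 (2.53, adjusted p = 0.136).

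GR2612 (chr8:50502007-50502632), in an intron of a neighbouring gene at -22772 b from the Apoa1 TSS, had values near those of VEH at the nadir. It had GR values of -0.77 and -0.95 in VEH, 5.49 and 5.53 in PEAK_140, -0.70 and -0.54 in NADIR_180, 4.73 and 4.19 in CONS_140, and 3.55 and 4.63 in CONS_180. All 6 libraries of the peak and of constant infusion were above all 4 of the nadir and vehicle. The GR value rose by 6.37 (SE 0.61, adjusted p = 5.01e-05) at PEAK_140, and it also passed under quantile normalization (2.40, adjusted p = 0.0151) but not with libraries centred on their medians.

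Between Apoa1 and Apoc3, GR3554 had values of 2.18 and -0.92 in VEH, 4.27 and 2.38 in PEAK_140, -0.70 and -0.54 in NADIR_180, and 3.05 to 3.62 in the 4 libraries of constant infusion. It was called at PEAK_140, CONS_140 and CONS_180, although its lower PEAK_140 library was close to the higher VEH library. GR1119, the region with the STAT5 matches at -6626 b from the Apoa5 TSS, was called at PEAK_140 (log2 change 3.94, SE 1.18, adjusted p = 0.013), with values of 4.75 and 3.42 there and 1.30 and -1.01 in VEH. GR3426 lies 7 b from the Apoc3 TSS and was not called, its values being 4.01 and -1.05 in the 2 CONS_140 libraries. GR3453, 3359 b past the Apoa5 TSS, had values of 3.24 and 2.87 in VEH and -0.61 and -0.41 in PEAK_140, a difference of -3.57 (SE 1.49) that missed the threshold (adjusted p = 0.0509) and was called lower with libraries centred on their medians.

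**Figure D1:**
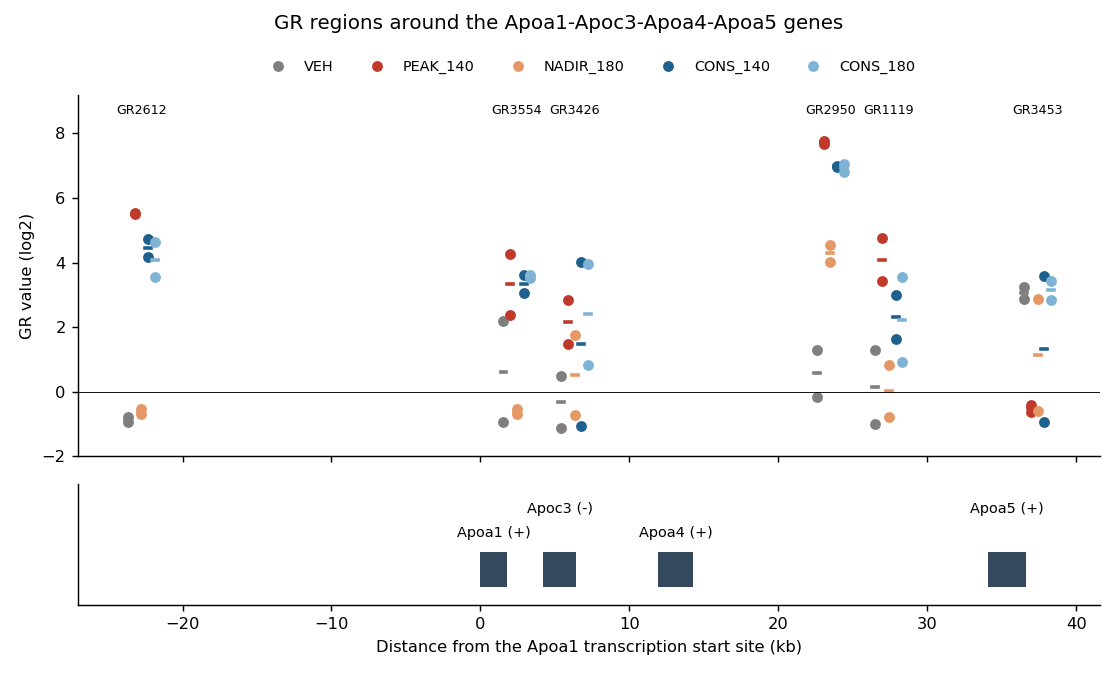
GR values (log2, vertical axis) of the 6 GR regions around Apoa1, Apoc3, Apoa4 and Apoa5, placed by their distance in kb from the Apoa1 TSS, with each library a dot, each group mean a short line and the 5 groups set slightly side by side for each region. Bars below mark the 4 genes with their strand, and at GR2950, between Apoa4 and Apoa5, the NADIR_180 libraries (4.55 and 4.03) lie between those of VEH (-0.15 and 1.30) and those of the other CORT groups.

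Around Apoa2, all 3 regions were called at 1 or more time points. GR2758, the region with the GR response element at -21057 b from the TSS, had values of 1.43 and -0.74 in VEH, 4.87 and 5.12 in PEAK_140, 2.01 and -0.30 in NADIR_180, 5.36 and 5.81 in CONS_140, and 4.69 and 5.59 in CONS_180. The nadir libraries overlapped VEH, and the other 6 libraries did not. GR2514, 15470 b past the TSS within an intron of a neighbouring gene, rose by 6.40 (SE 0.86, adjusted p = 0.000246) at PEAK_140, from -0.61 and -0.80 in VEH to 5.54 and 5.85. Against VEH, GR3573 was called at CONS_180 only (2.27, SE 0.90, limma adjusted p = 0.048). As deposited, its values were 3.57 and 1.12 in PEAK_140 and 0.64 and 1.58 in VEH, a change of 1.24 (SE 0.90, not called). Centring libraries takes off the median of all regions, which was 4.17 above VEH at PEAK_140, and GR3573 was then called lower there.

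Apob had 1 region within reach, GR1577, at -25896 b from its TSS. Its GR values were -0.71 and 1.14 in VEH, 4.02 and 3.41 in PEAK_140, 1.89 and -0.51 in NADIR_180, 1.77 and 3.01 in CONS_140, and 3.53 and 2.03 in CONS_180. It rose by 3.50 (SE 1.04, adjusted p = 0.0127) at PEAK_140, while the differences of 2.17 at CONS_140 (adjusted p = 0.0956) and 2.57 at CONS_180 (adjusted p = 0.0529) did not pass. A further region at -81433 b from the Apob TSS, outside the 50 kb, was called at PEAK_140 too (3.72, SE 0.92, adjusted p = 0.00544). The only region near Mttp, GR3845 at -15556 b from its TSS, had a value of 4.62 in CONS_140 replicate 1 and of -1.35 to 0.72 in the other 9 libraries, and was called in no comparison.

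At the chromosome 1 cluster, GR1227 lies over an upstream start of Apoe, 159 b past it (chr1:80616586-80617211). Its GR values were 1.948 and -0.658 in VEH, 4.47 and 4.68 in PEAK_140, 3.30 and 2.90 in NADIR_180, 4.85 and 4.65 in CONS_140, and 4.03 and 3.79 in CONS_180. Both nadir libraries were above both VEH libraries, but the difference of 2.46 (SE 0.79) did not pass (adjusted p = 0.111), whereas those of 3.93, 4.11 and 3.26 at the other points did. GR3180, 6509 b past the Apoc1 TSS between Apoc1 and Apoc2, rose by 5.43 (SE 0.61, adjusted p = 0.00011) at PEAK_140 and was at 0.72 and -0.50 in NADIR_180. GR70, 264 b past another Apoe start, had values of 6.64 and -1.48 in the 2 VEH libraries and of 7.10 and -1.42 in the 2 CONS_140 libraries, so that 1 library of each carried its signal. CONS_140 replicate 1 was over 4 above replicate 2 at 5 of the 15 regions, as at 295 of all 3981 regions, with the opposite at 48.

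**Figure D2:**
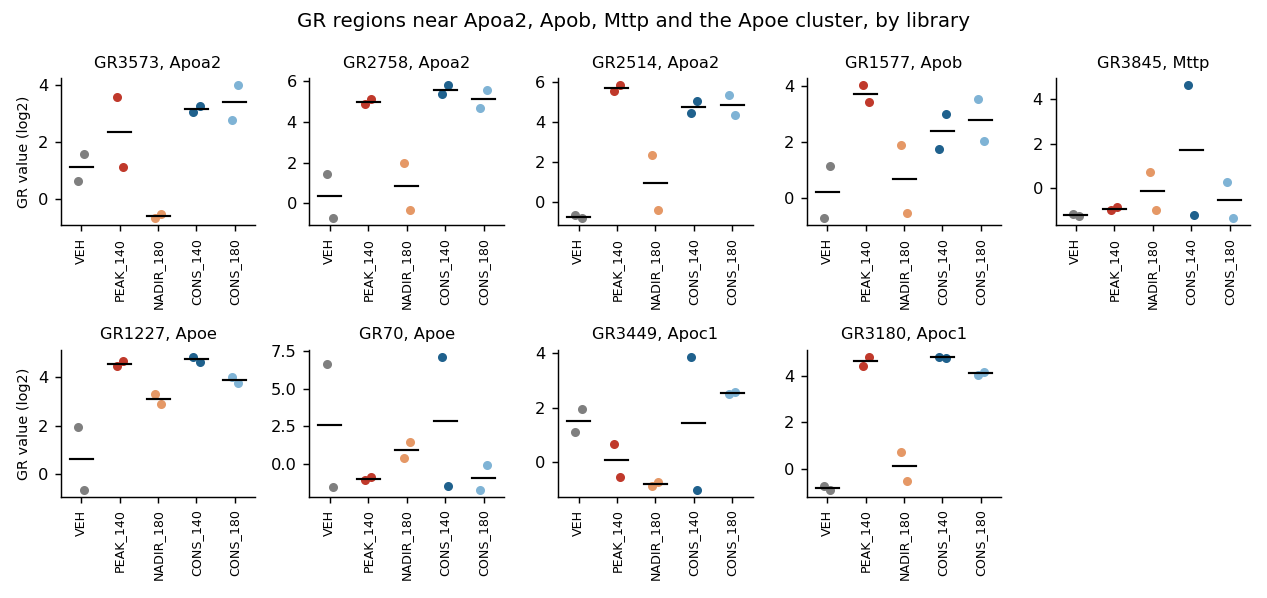
GR values (log2) by library at the 9 regions near Apoa2, Apob, Mttp, Apoe and Apoc1, with each dot a library and each line a group mean of 2. At GR2758, GR2514 and GR3180 the libraries of the peak and of constant infusion are all above those of the nadir, while GR70 is high in 1 VEH and 1 CONS_140 library and GR3845 in 1 CONS_140 library.

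Counted over the 15 regions, 9 were called at PEAK_140 against VEH, 1 at NADIR_180, 7 at CONS_140 and 8 at CONS_180, all higher, where 80.5%, 7.79%, 65.1% and 68.2% of all 3981 regions were called. The shares near these genes were thus at or below the background. PEAK_140 exceeded NADIR_180 at 9 regions (69.3% of all called), NADIR_180 was below CONS_180 at 7 (49.6% of all), and the change from nadir to peak under pulses exceeded the matching change under constant infusion at 6 (44% of all). No region was called between CONS_140 and CONS_180 (0% of all, 0 of 15 at an unadjusted p under 0.05) or between PEAK_140 and CONS_140 (0.0502% of all, 0 of 15). At that unadjusted p there were 194 and 560 of all 3981 regions. These 9 comparisons share libraries. After centring or quantile normalization, a lower call is relative to the other regions and need not be a fall in the deposited values. The split of higher and lower calls depended on the scaling: with libraries centred on their medians, PEAK_140 against VEH gave 1 higher and 3 lower, CONS_140 against VEH 1 lower and PEAK_140 against NADIR_180 1 lower, and under quantile normalization PEAK_140, NADIR_180, CONS_140 and CONS_180 against VEH gave 3 and 3, 1 and 1, 2 and 2, and 1 and 2, with 1 and 1 for PEAK_140 against NADIR_180. The comparison of NADIR_180 with VEH gave 2 regions without VEH replicate 1 or without NADIR_180 replicate 2, PEAK_140 against NADIR_180 gave 5 without PEAK_140 replicate 1, NADIR_180 against CONS_180 gave 4 without CONS_180 replicate 2, and the difference between patterns gave 3 without PEAK_140 replicate 1 and 3 without CONS_180 replicate 1.

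The study also deposited 1 list of GR peaks per group. Of the 15 regions, 8 overlapped a PEAK_140 peak by 1 b or more, 0 a NADIR_180 peak, 7 a CONS_140 peak, 12 a CONS_180 peak and 1, GR70, a VEH peak. These lists hold 3210, 73, 1723, 2428 and 118 peaks in that order of groups, and a peak of NADIR_180 was not listed at GR2950.

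pSer2 Pol2 was measured over each gene up to 10 kb from its TSS, which truncates Apob and Mttp, as a deposited log2 tag value. Per kb of region, the mean log2 level in VEH was 8.84 for Apoa5, 8.07 for Apob, 7.70 for Apoa1, 7.67 for Apoe, 7.66 for Apoc3, 7.23 for Apoc1, 6.24 for Apoa4, 5.81 for Apoc2, 5.12 for Apoa2 and 1.35 for Mttp. In this order Apoa1, Apoe and Apoc3 were not separated by their 2 VEH libraries, nor were Apoa4 and Apoc2. Mttp was far below the rest, and its 2 VEH libraries, at 2.03 and 0.66 per kb, were also the most unlike.

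None of the 10 genes was called for pSer2 Pol2 in any of 9 comparisons by limma. The background was low as well, as against VEH 0.989% of 38315 tested regions were called for the pulse peak, 0.00522% for the nadir, 0.788% for CONS_140 and 0.214% for CONS_180. At an unadjusted p under 0.05 there were 2, 0, 4 and 2 of the 10 genes, in the same order, beside 1921, 555, 2264 and 1125 of the 38315 regions. The other comparisons called 0.48% of all regions (PEAK_140 against NADIR_180), 0% (CONS_140 against CONS_180), 0.0261% (PEAK_140 against CONS_140), 0.17% (NADIR_180 against CONS_180) and 0.0574% (the difference between patterns), with 4, 2, 5, 1 and 4 of the 10 genes at an unadjusted p under 0.05. In that order, 2098, 1134, 3336, 876 and 2455 of the 38315 regions were under it. Adjusted p-values below are those over all regions tested. Alternatives that called a gene are named for some comparisons, and the counts that moved are given at the end.

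For Apob, the core protein of very low density lipoprotein, the group with the lowest pSer2 Pol2 was the pulse peak. Its log2 values were 11.51 and 11.28 in VEH, 9.88 and 10.49 in PEAK_140, 11.20 and 11.32 in NADIR_180, 10.68 and 10.47 in CONS_140, and 10.67 and 10.57 in CONS_180. The 6 libraries of the peak and of constant infusion were all below the 4 of vehicle and nadir, which overlapped each other. The difference from VEH was -1.21 at PEAK_140 (SE 0.27, 95% interval -1.80 to -0.62, or 0.433-fold, limma adjusted p = 0.0771), -0.13 at NADIR_180 (interval -0.72 to 0.46), -0.81 at CONS_140 (adjusted p = 0.417) and -0.77 at CONS_180 (adjusted p = 0.879). The PEAK_140 difference passed where libraries were centred on their medians (-1.12, adjusted p = 0.0229), under quantile normalization (-1.15, adjusted p = 0.0262) and where only the better covered regions, those with a mean at or above the median, were tested (-1.21, adjusted p = 0.00158). Apob passed at CONS_140 too in that last setting (-0.81, adjusted p = 0.0236) and under quantile normalization (-1.09, adjusted p = 0.0381).

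For Mttp, which loads lipid onto Apob, constant infusion was not below vehicle. Its pSer2 Pol2 values were 5.35 and 3.99 in VEH, 3.99 and 4.43 in PEAK_140, 5.41 and 4.81 in NADIR_180, 5.35 and 4.59 in CONS_140, and 5.25 and 4.89 in CONS_180. The VEH libraries alone covered most of that range, and the interval of the difference at PEAK_140 ran from -1.48 to 0.56.

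In the 3 genes on chromosome 1, pSer2 Pol2 was lower at the pulse peak than at the nadir and at CONS_140 in every library, an order that Mttp had too, and none of these differences passed in the model of all 10 libraries. Apoa2, Apoa4 and Apoc3 were likewise lower than CONS_140, and Apob than the nadir. The median of all regions was lower at the peak too, by -0.08 against NADIR_180 and -0.26 against CONS_140. The share of all regions separated in this way was not counted. Apoc1, which inhibits lipoprotein uptake and lipid transfer, had pSer2 Pol2 values of 9.13 and 8.76 in VEH, 8.31 and 8.03 in PEAK_140, 9.39 and 9.71 in NADIR_180, 10.39 and 9.79 in CONS_140, and 9.36 and 8.82 in CONS_180. Apoe had 9.87 and 9.59, 9.74 and 9.04, 10.38 and 10.29, 11.09 and 10.53, and 10.01 and 9.45 in the same order of groups. Apoc2, the activator of lipoprotein lipase, had 8.39 and 7.93, 7.61 and 7.38, 8.50 and 8.78, 9.05 and 8.59, and 8.38 and 8.14. Against VEH, the PEAK_140 libraries of Apoc1 and Apoc2 were below both VEH libraries, and those of Apoe overlapped them.

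PEAK_140 differed from CONS_140 by -1.93 for Apoc1 (SE 0.34, interval -2.67 to -1.19, adjusted p = 0.0712), by -1.42 for Apoe (SE 0.34, adjusted p = 0.154) and by -1.32 for Apoc2 (SE 0.33, adjusted p = 0.169), where the median over all regions differed by -0.26. No label pairs the pSer2 Pol2 libraries. Same-numbered libraries were taken as pairs only because their deviations correlated in these same data (r = 0.157 to 0.478), which does not establish a pairing. With that number as a block over the 8 CORT libraries, PEAK_140 against CONS_140 called 2 of the 10 genes by limma. These were Apoc1 (adjusted p = 0.0347) and Apoe (adjusted p = 0.0436), as against 0 without the block. The change from nadir to peak under pulses, less the matching change under constant infusion, was -2.38 for Apoc1 (SE 0.48, adjusted p = 0.13), -2.02 for Apoe (SE 0.48, adjusted p = 0.224) and -1.70 for Apoc2 (SE 0.46, adjusted p = 0.322). Apoc1 passed in this comparison with libraries centred on their medians (-2.10, adjusted p = 0.0286) and under quantile normalization (-2.04, adjusted p = 0.0196). CONS_140 replicate 2 bore on these counts, as the fit without it called 4 of the 10 genes for PEAK_140 against CONS_140, 4 for the difference between patterns, 3 for CONS_140 against VEH and 2 for CONS_140 against CONS_180.

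On chromosome 8, no member separated the pulse peak from VEH. Apoa4, carried on triglyceride-rich particles, had pSer2 Pol2 values of 7.75 and 7.22 in VEH, 7.79 and 7.44 in PEAK_140, 7.57 and 7.62 in NADIR_180, 8.72 and 8.04 in CONS_140, and 8.64 and 8.10 in CONS_180. All 4 libraries of constant infusion were above both VEH libraries, by 0.90 (SE 0.37, adjusted p = 0.536) and 0.88 (SE 0.37, adjusted p = 0.999), and the tags of this region may include those of an overlapping gene model. Apoa1, the main protein of high density lipoprotein, had 8.64 and 8.42 in VEH, 8.81 and 8.36 in PEAK_140, 9.40 and 8.78 in CONS_140, and 9.24 and 8.71 in CONS_180. Apoc3, an inhibitor of lipoprotein lipase, had 8.9995 and 8.58 in VEH and 9.74 and 9.19 in CONS_140. Apoa5, which promotes lipase action, ranged from 9.82 in NADIR_180 to 10.81 in CONS_140, and Apoa2 on chromosome 13 from 5.36 in PEAK_140 to 6.50 in CONS_140.

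Over the 10 genes, 9 were above VEH at CONS_140, Apob being the exception, and 9 also with libraries centred on their medians or under quantile normalization. At PEAK_140, 7 were below VEH and 3 above, and 5 and 5 under quantile normalization. The median difference of the 10 genes at CONS_140 was 0.61, beside 0.15 for all regions, and at PEAK_140 -0.32, beside -0.05.

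**Figure D3:**
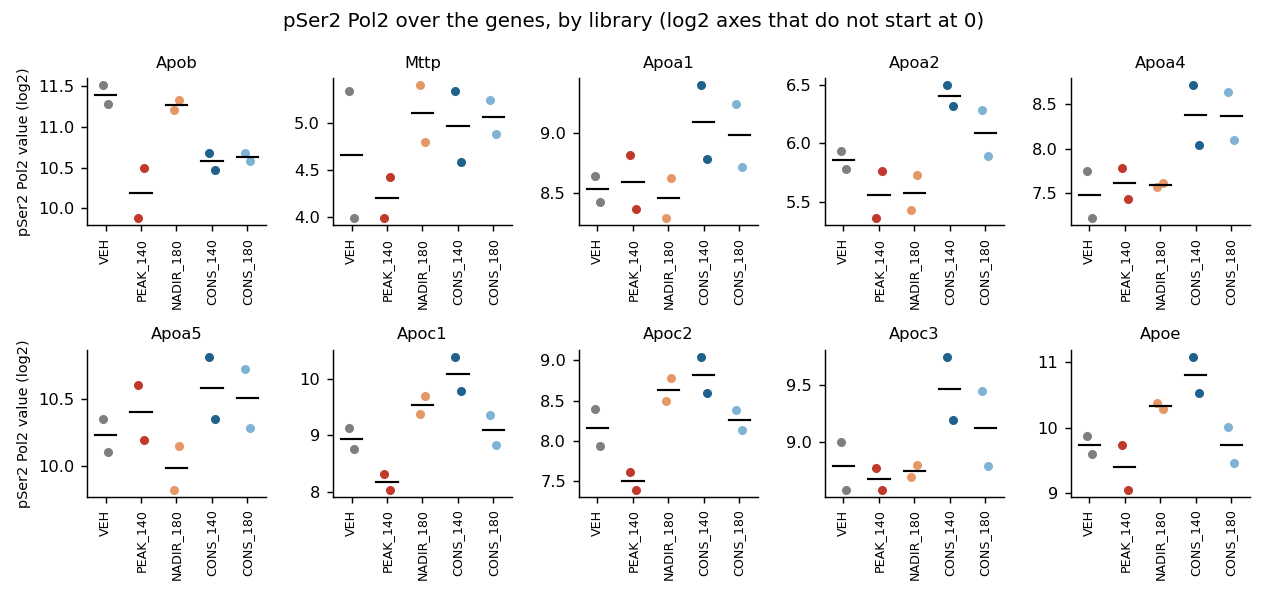
pSer2 Pol2 values (log2) of the 10 genes by library, with each dot a library and each line a group mean of 2, on axes that differ between genes and do not start at 0. Apob has its lowest group mean in PEAK_140 (9.88 and 10.49), and in Apoc1, Apoc2, Apoe and Mttp both PEAK_140 libraries are below both NADIR_180 and both CONS_140 libraries. In Apoa2, Apoa4 and Apoc3 they are below both CONS_140 libraries but overlap the NADIR_180 libraries.

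The genes whose pSer2 Pol2 was most like that of Apob over the 10 libraries, 1 region for each of 8114 better covered genes, were Itih4 (Pearson r = 0.972), Gucy1b2 (0.964), Slc25a13 (0.954), Plg (0.951) and Slc17a2 (0.949). Those most like Mttp were Ywhae (0.986), Uba3 (0.982), Smarcc2 (0.974), Ctdnep1 (0.967) and Stau1 (0.962). These are descriptions over 10 libraries that share their depth and scaling.

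RNA was measured at 180 min only, the nadir of the pulse, and CPM are given within a gene since the counts were not divided by length. By edgeR, 0 of the 10 genes were called under pulses (4.23% of 14092 genes called), with 1 at an unadjusted p under 0.05 (2793 of the 14092), and DESeq2 also called 0. Under constant infusion 1 of the 10 was called (9.2% of all), and the same number by DESeq2.

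That gene was Apoa4, whose level fell under constant infusion. Its CPM were 235, 174 and 281 in CONS_VEH and 158, 119 and 126 in CONS_CORT, so that every CONS_CORT library was below every CONS_VEH library. The log2 change was -0.78 (SE 0.18, 0.583-fold, adjusted p = 0.00702). Under pulses it was 209, 174 and 234 CPM in PULS_CORT and 236, 173 and 208 CPM in PULS_VEH, a log2 change of 0.00 (SE 0.17). The change was called without any one of the 12 libraries, from -0.94 without CONS_VEH replicate 2 to -0.61 without CONS_VEH replicate 3. The difference between the 2 patterns was -0.78 (SE 0.25), which missed the threshold in edgeR (adjusted p = 0.186) and passed in DESeq2 (adjusted p = 0.0497). CONS_CORT was below PULS_CORT by a log2 difference of -0.62 (SE 0.18, adjusted p = 0.131 in edgeR), which passed in DESeq2 (adjusted p = 0.0444) and with the replicate number as a block (-0.61, adjusted p = 0.037), and between these 2 groups the deviations of all 3 same-numbered pairs were correlated (r = 0.12 to 0.209). The mRNA was lower in the infusion under which the pSer2 Pol2 libraries of Apoa4 lay above VEH, a pSer2 Pol2 difference that was not called. The baselines are unlike, since the mRNA was set against constant vehicle and pSer2 Pol2 against pulsatile vehicle.

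Apoa1 mRNA stood at different levels in the 2 vehicle groups. It was 622, 637 and 609 CPM in PULS_VEH and 419, 314 and 298 CPM in CONS_VEH, a log2 difference of 0.86 (SE 0.19, edgeR adjusted p = 0.254). The treated groups had 578, 406 and 295 CPM in PULS_CORT and 489, 534 and 461 CPM in CONS_CORT. The log2 change was -0.55 (SE 0.19, adjusted p = 0.107) under pulses and 0.52 (SE 0.19, adjusted p = 0.0842) under constant infusion, and the difference between these changes was 1.07 (SE 0.27, adjusted p = 0.105). The last was called by DESeq2 (adjusted p = 0.00702), which also called the difference between the vehicles (0.85, adjusted p = 0.00234), while in edgeR the 2 CORT groups differed by 0.21 (SE 0.19, adjusted p = 0.759). Leaving out CONS_VEH replicate 1, the highest of its group, gave a call under constant infusion (0.69, adjusted p = 0.0349), and leaving out PULS_CORT replicate 1 gave one under pulses (-0.83, adjusted p = 0.0173).

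Apob mRNA was 8214, 8047 and 7125 CPM in PULS_VEH and 7132, 7602 and 6767 CPM in PULS_CORT. It was 7633, 8817 and 8755 CPM in CONS_VEH and 7226, 7137 and 6804 CPM in CONS_CORT, where the groups did not overlap. The log2 changes were -0.12 (SE 0.12, adjusted p = 0.634) and -0.25 (SE 0.12, adjusted p = 0.196). Mttp mRNA was 197, 175 and 194 CPM in PULS_VEH and 213, 222 and 214 CPM in PULS_CORT, also without overlap, at a log2 change of 0.20 (SE 0.10, adjusted p = 0.304). Under constant infusion it was 194, 197 and 214 CPM in CONS_VEH and 170, 187 and 178 CPM in CONS_CORT. These groups did not overlap either, at a change of -0.17 (SE 0.10, edgeR adjusted p = 0.32). The share of all genes whose groups did not overlap was not counted.

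Apoe, Apoc1 and Apoc2 had pSer2 Pol2 above both VEH libraries in both NADIR_180 libraries. These differences, of 0.60, 0.60 and 0.48, were not called, and their 95% intervals included 0. The mRNA changes of the 3 genes under pulses were 0.23 (SE 0.13), 0.24 (SE 0.14) and -0.04 (SE 0.14), none of which passed. Apoe was 4330, 3240 and 4151 CPM in PULS_VEH and 4507, 4518 and 4728 CPM in PULS_CORT, the treated libraries all being higher, and 4385, 4697 and 5481 CPM in CONS_VEH and 4360, 4584 and 4368 CPM in CONS_CORT. Apoa2, Apoa5 and Apoc3 had log2 changes of 0.03, 0.04 and 0.14 under pulses and of -0.31, 0.12 and -0.17 under constant infusion, with adjusted p of 0.2 or more.

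Between the groups, no gene of the 10 was called for the difference between patterns (0.0284% of all genes called, 4 of the 10 at an unadjusted p under 0.05, 2 by DESeq2), for CONS_CORT against PULS_CORT (0.887%, 2 of the 10, 1 by DESeq2) or for PULS_VEH against CONS_VEH (0%, 5 of the 10, 1 by DESeq2). At that unadjusted p there were 1749, 1548 and 1286 of all 14092 genes, in the same order. The summed level of 4 stellate cell markers was 224 to 275 CPM in the 6 vehicle libraries and 158 to 203 CPM in the 6 CORT libraries, with all 4 markers detected and none at 0. Most of this sum was Reln, with 10681 reads in all libraries together, against 2294 for Colec11, 347 for Lrat and 109 for Des. The part of this sum in the RNA changes was not tested.

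**Figure D4:**
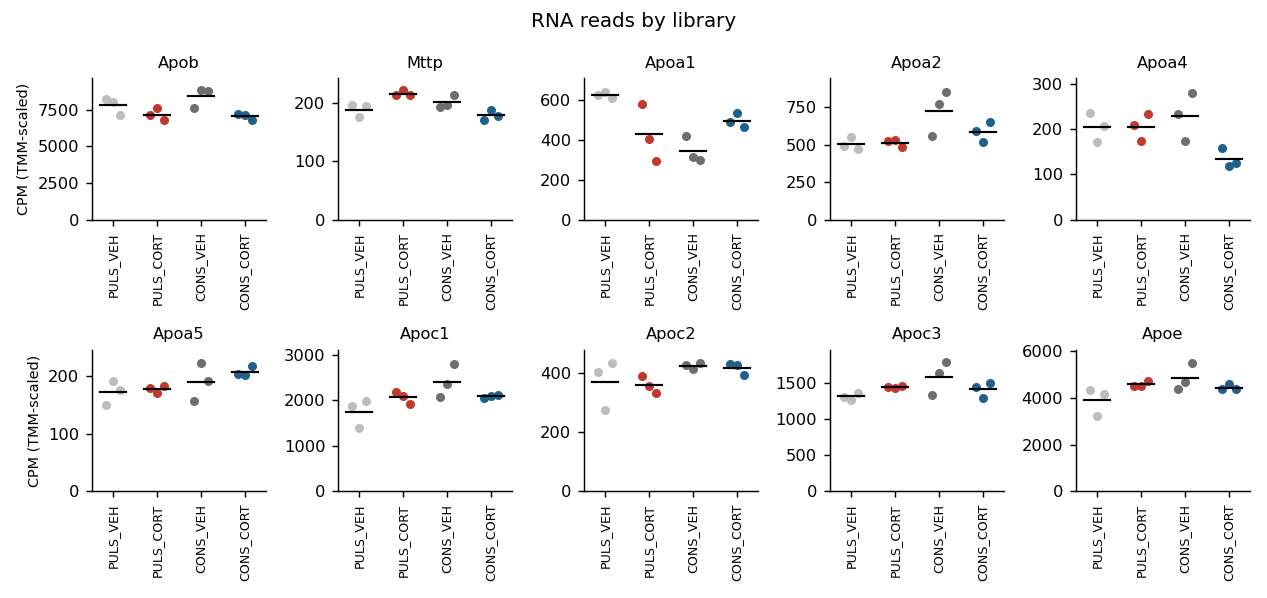
RNA level (CPM, from 0) of the 10 genes in the 12 libraries at 180 min, with each dot a library and each line a group mean of 3. Apoa4 is lower in all 3 CONS_CORT libraries (119 to 158 CPM) than in CONS_VEH, and Apoa1 differs between PULS_VEH (609 to 637 CPM) and CONS_VEH (298 to 419 CPM).

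Beside the 10 genes, 7 lists of other genes of lipoprotein metabolism were counted, with 70 genes of which 60 were tested in RNA. Under pulses 4 of the 60 were called, 1 higher and 3 lower, and under constant infusion 11, with 4 higher and 7 lower, where 4.23% and 9.2% of all tested genes were called. Of the 10 genes of VLDL assembly and export tested, of 7 other apolipoproteins and of 2 genes of Apob mRNA editing, none was called in either comparison. Of 7 tested genes of high density lipoprotein and plasma lipid remodelling, Lipc, hepatic lipase, fell under both patterns, by 0.61 (SE 0.16) under pulses and by 0.84 (SE 0.16) under constant infusion on the log2 scale.

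Among 14 tested transcription factors of apolipoprotein genes, Foxo1, a regulator of Apoc3 and Mttp, rose by 0.81 (SE 0.18) under pulses and by 1.82 (SE 0.18, adjusted p = 6.5e-06) under constant infusion. Under constant infusion Ppara, a regulator of fatty acid oxidation, rose by 1.5 (SE 0.28) and Nr1d1, a clock repressor, by 0.88 (SE 0.27), while Srebf1, a sterol regulatory factor, fell by 1.54 (SE 0.28), and 1 further factor of the list with a smaller change fell too. Among 10 neighbours of the 2 clusters, Sik3 beside Apoa1 (-0.75, SE 0.15) and Relb (-1.41, SE 0.34) fell under pulses. Under constant infusion Relb (-1.04) and Nectin2 (-0.65, SE 0.13) fell and Tomm40, beside Apoe, rose (0.72, SE 0.16). In pSer2 Pol2, 60 of the 70 genes were tested, of which Foxo1 was called higher at CONS_140 (2.57, SE 0.40, adjusted p = 0.0126 in limma), with none called at NADIR_180 or CONS_180.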

How the data were processed

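The authors deposited log2 values per region and library for GR and pSer2 Pol2, raw counts per Ensembl gene for RNA, and positions (other values, in b) of the peaks of each group. According to the methods, ChIP reads were aligned to rn6 with bowtie2, peaks were called over input with HOMER, and the submitters' notes name Trimmomatic 0.36, HOMER 4.9.1, STAR and featureCounts 1.6.2. How the deposited ChIP log2 values treat low tags is not given in the sources used here. Tables of the authors' own comparisons (fold changes and p-values) were not used.

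For ChIP, 1 linear model per assay was fitted to all 10 libraries (limma 3.58.1, R 4.3.3), for 38315 pSer2 Pol2 regions whose values were not all equal and for all 3981 GR regions. RNA counts of 14092 genes with more than 10 reads in all were compared with edgeR 4.0.16 (TMM, quasi-likelihood test over 12 libraries), with DESeq2 1.42.0 as an alternative. Calls needed a Benjamini-Hochberg adjusted p under 0.05 and a change over 1.5-fold. Each gene was represented by the region carrying its Ensembl gene ID. The fits were tested on simulated data. The p-values measure only the spread between these libraries, which the labels do not tie to named animals.

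All 10 genes were described in every comparison. Of the listed genes, those called against vehicle were named, at most 10 per comparison by size of change. Results of the list of receptors and uptake genes are not reported here. For Apob and Mttp, the 5 genes of highest r were named. The members and lists were chosen with earlier results of these data known. For pairing, deviations from group means were correlated between libraries of the same number. In pSer2 Pol2 all 6 pairs of CORT groups were over 0.1 (r = 0.157 to 0.478), and the numbers were taken as pairs, a check that rests on the data and not on the labels. The label of 1 CONS_140 GR library ends in rep25, which was read as replicate 2 without a source that settles it.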

Additional observations from a re-analysis of the deposited data

Results flagged for a closer look

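At 6 GR regions the change from nadir to peak under pulses differed, by limma's test of the difference itself, from the change between the same times under constant infusion. The log2 difference was 5.77 (SE 0.86, adjusted p = 0.00466) at GR2612 before Apoa1, 4.18 (adjusted p = 0.0465) at GR3554 between Apoa1 and Apoc3, and 3.37 (SE 0.68, adjusted p = 0.00863) at GR2950 between Apoa4 and Apoa5. It was 3.70 (adjusted p = 0.0465) at GR2758 and 4.82 (adjusted p = 0.0172) at GR2514 near Apoa2, and 3.82 (SE 0.87, adjusted p = 0.0126) at GR3180 near Apoc1. The median over all 3981 regions was 3.11. These 6 of 15 regions stand beside 44% of all regions called, and none of the 15 was called with libraries centred on their medians or under quantile normalization. The regions are merged peaks and the NADIR_180 list holds 73, so this difference is partly set by how they were chosen. In the main models no pSer2 Pol2 or RNA difference of this kind passed among the 10 genes, while DESeq2 called 2 in RNA and centring and quantile normalization called 1 each in pSer2 Pol2. With 2 or 3 libraries in a group, no single library could be tested as an outlier.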

How the results depend on the processing

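GR counts depended on scaling. The median of all regions was above VEH in the CORT groups, by 4.17 at PEAK_140, and why the counts moved was not tested. With libraries centred on their medians, the GR calls were 4 for PEAK_140 against VEH (1 higher, 3 lower), 0 for NADIR_180, 1 (lower) for CONS_140 and 0 for CONS_180 against VEH, 1 (lower) for PEAK_140 against NADIR_180, 0 for NADIR_180 against CONS_180 and 0 for the difference between patterns. Under quantile normalization they were 2 for NADIR_180, 4 for CONS_140 and 3 (1 higher, 2 lower) for CONS_180 against VEH, 2 for PEAK_140 against NADIR_180, 0 for NADIR_180 against CONS_180 and 0 for the difference between patterns. With only the 4 libraries of the 2 groups, NADIR_180 against VEH gave 0. For pSer2 Pol2, centring gave 1 gene each for PEAK_140 against VEH, against NADIR_180 and against CONS_140 and for the difference between patterns. Quantile normalization gave 1 for PEAK_140 and 1 for CONS_140 against VEH, 3 for PEAK_140 against NADIR_180, 1 against CONS_140 and 1 for the difference between patterns. Testing better covered regions only, which leaves fewer tests, gave 1, 2, 2, 2 and 2 in that order. In RNA, DESeq2 gave 2 for the difference between patterns, 1 for CONS_CORT against PULS_CORT and 1 between vehicles, and a filter of 1 read in any library gave 1, 1 and 1. Where not stated, the cause was not tested.

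With the replicate number as a block, pSer2 Pol2 gave 2 for PEAK_140 against CONS_140 and no other call, and in GR it gave 10 regions for PEAK_140 against NADIR_180, 7 for NADIR_180 against CONS_180 and 6 for the difference between patterns, as without the block in the same libraries. In RNA the replicate block gave 1 gene under pulses and 1 for CONS_CORT against PULS_CORT, where the deviations of same-numbered libraries correlated over 0.1 in all 3 pairs of the 2 CORT groups but in only 6 of 18 pairs over all groups (r = -0.168 to 0.209), and in none of the 6 GR pairs (r = -0.0265 to 0.0718). Leaving out each library in turn gave, for pSer2 Pol2, 0 to 3 genes for CONS_140 against VEH, 0 to 2 for CONS_140 against CONS_180, 0 to 4 for PEAK_140 against CONS_140 and 0 to 4 for the difference between patterns. For GR it gave 1 to 2 for NADIR_180 against VEH, 5 to 10 for PEAK_140 against NADIR_180, 4 to 8 for NADIR_180 against CONS_180 and 3 to 6 for the difference between patterns. For RNA it gave 0 to 1 under pulses, 1 to 2 under constant infusion, 0 to 1 for the difference between patterns and 0 to 1 between vehicles. Asking peaks to cover 50% of a GR region in place of 1 b moved the VEH peak overlap from 1 to 0 and no other. GR values at the low end of the scale come from few tags and are the least precise.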
